A study of Homo sapiens with 4 samples.

Results

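The 10 genes described here encode the G1 phase cyclins (CCND1, CCND2, CCND3, CCNE1, CCNE2), the kinases CDK4 and CDK6, the inhibitors p27 (CDKN1B) and p57 (CDKN1C), and the retinoblastoma protein (RB1). They were chosen by gene symbol, and all 10 were found among the 15942 genes of the deposited table and passed the filter on low counts. They were followed in H9 cells, an established line of human embryonic stem cells (hESCs) grown on Matrigel in DMEM/F12 with E8. The siUPF1 group had been transfected with a small interfering RNA (siRNA) against UPF1, an RNA helicase required for nonsense-mediated decay (NMD) of transcripts. The siLuc group had received a control siRNA against luciferase. Each group held 2 libraries, called siUPF1 replicates 1 and 2 and controls a and b, because the table gives both control columns one heading. One treatment text covers every library and mentions, besides, actinomycin D, a transcription inhibitor, and an siRNA against UPF3A, without tying either to a library.

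A cell commits to DNA replication when cyclin D bound to CDK4 or CDK6, and then cyclin E bound to CDK2, phosphorylate the retinoblastoma protein, which releases the E2F transcription factors. p27 and p57 bind these complexes and restrain them. Embryonic stem cells are known for a short G1 phase, and CDK6 is described as low in stem cells and higher after differentiation. The 10 genes were picked with earlier results of these data known, so their counts below are descriptions and not independent evidence.

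Depth ranged from 8887239 to 11200973 counts per library. UPF1 had 608 and 878 counts in siUPF1 replicates 1 and 2, against 1936 and 2053 in controls a and b, which left 32.8% of the control level after scaling. The labels do not say whether replicates were separate cultures, so the p-values below rest on library-to-library spread that may be technical alone. In bulk RNA, fewer cells of a type or cell cycle phase and less RNA per cell cannot be told apart. All 15 stem cell markers on the list used here were detected. Their summed level was 1936 to 2058 CPM, which are counts scaled for library depth by TMM (trimmed mean of M-values), in siUPF1 libraries and 2229 to 2364 CPM in controls.

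CDK6, CDKN1C and CCNE2 rose, CCND1 and CCNE1 fell, and CDK4, CCND2, CCND3, CDKN1B and RB1 did not pass the test. The test was edgeR's quasi-likelihood test with Benjamini-Hochberg adjustment over all 15557 genes tested, with an adjusted p of 0.05 as the threshold. At that threshold 5 of 10 members changed, where 25.9% of all genes tested changed. Of the members 3 of 10 rose, where 16.8% of all genes tested rose, and 2 of 10 fell, where 9.14% of all genes fell. The median log2 fold change was 0.03 over the members and -0.01 over all genes tested. The groups did not overlap for 9 of 10 members, CDK4 being the exception, beside 63.4% of all genes tested. The split over all genes was 2613 up and 1422 down, and it became 2165 up and 2066 down once each library's trend on reads per transcript base was removed. At an unadjusted p under 0.05 in edgeR, 4 members were higher and 4 lower. The calls of both falls depended on having both controls, while their direction did not. CCND1 stood at -0.18 without control a and at -0.25 without control b, and CCNE1 at -0.20 and -0.27. Without control a 0 members fell in edgeR, with 1 lower at an unadjusted p under 0.05, and without control b 0 fell, with 2 lower at an unadjusted p under 0.05. With all 4 libraries, DESeq2 called 2 members up and 1, CCND1, down. Without siUPF1 replicate 2 edgeR called 1 down.

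**Figure D1:**
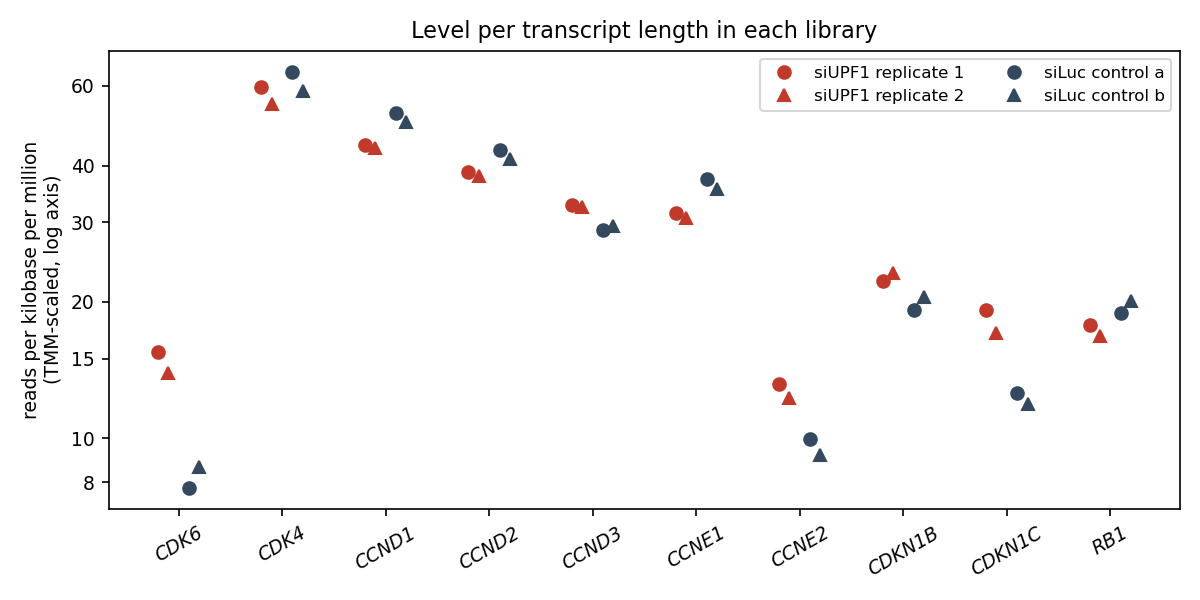
Level of each gene per transcript length in each library, as TMM-scaled CPM per kilobase on a log axis; red points are siUPF1 replicates and dark points siLuc controls. CDK6 lay at 13.9 and 15.5 in siUPF1 libraries, above 7.77 and 8.64 in the controls, while the CDK4 points of both groups overlapped.

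CDK6 rose most. CDK6 encodes a catalytic partner of the D cyclins. Its scaled level was 179 CPM in siUPF1 replicate 1 and 161 CPM in siUPF1 replicate 2, against 89.7 CPM in control a and 99.7 CPM in control b (raw counts 1790 and 1803 against 793 and 1000). Both siUPF1 libraries lay well above both controls, and every one of the pairings of a siUPF1 library with a control gave a log2 ratio between 0.69 and 1.0. The controls differed from each other by 0.15 on the log2 scale (b over a) and the siUPF1 libraries by -0.16 (2 over 1). The log2 fold change was 0.84 (SE 0.07, adjusted p = 2.02e-29, edgeR), a 1.79-fold higher level, and 96.3% of genes tested had a lower log2 fold change. CDK6 passed the test in each of 11 other fits, with log2 fold changes from 0.75 to 0.92. These fits changed the normalization, the test or the low-count filter, removed the trend on reads per base, or left out each library in turn.

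CDK4, the other D cyclin kinase, did not follow. Its level was 88.3 and 80.8 CPM in siUPF1 replicates 1 and 2, against 95.5 and 86.6 CPM in controls a and b. The groups overlapped, and the log2 fold change of -0.11 (SE 0.07, adjusted p = 0.308, edgeR) was smaller in size than the difference between the controls, -0.14 for b over a. CDK4 had 0.591 reads per transcript base, more than 96.7% of genes. No gene with at least 100 counts exceeded 1.12 reads per base. With each library's trend on reads per base removed, the log2 fold change of CDK4 was -0.01. CDK4 overlaps TSPAN31 on the opposite strand over 1369 exonic bases when all GENCODE transcripts are counted and over 0 bases of the transcripts in the table, and TSPAN31 had a log2 fold change of 0.28 (SE 0.11, adjusted p = 0.0588, edgeR).

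Scaled by transcript length, the CDK4 level still exceeded that of CDK6 in every library. CDK4 had 0.591 and CDK6 0.117 reads per base, where the median gene had 0.166 and none with at least 100 counts exceeded 1.12. Whether counts of dense genes stay in proportion to transcripts was not tested. Shares and sums given here are of counts per length. CDK6 made up 20.6% and 20.3% of the pair's summed level per length in siUPF1 replicates 1 and 2, against 10.8% and 12.9% in controls a and b. The share was 20.5% ± 0.225 in siUPF1 libraries and 11.8% ± 1.499 in controls (SD, n = 2 each), a difference of 8.66 percentage points. With 2 libraries against 2, the exact permutation test (two-sided) cannot go below p = 0.333, which this share and every other share given here reached. The summed level of both kinases was 71.8 ± 4.73 CPM per kilobase in siUPF1 libraries and 69.7 ± 3.63 in controls, a difference smaller than the spread within either group.

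The table sums 2 RefSeq transcripts of CDK6, which start at separate sites, so it does not tell which of them carried the rise. The promoters of both CDK6 starts are shown because CDK6 is the member that changed most, and that of CDK4 because its level did not follow. Each runs from upstream of the start into the first bases of the transcript and comes from RefSeq on GRCh38.p14, while the submitters' processing notes name hg19. CDK6 lies on the minus strand of chromosome 7, with windows at chr7:92833910-92834209 for NM_001259 and chr7:92836524-92836823 for NM_001145306. CDK4 lies on the minus strand of chromosome 12, with its window at chr12:57752261-57752560. Capitals mark CACGTG, the E-box bound by MYC family factors, and GGGCGG or its reverse complement, the GC box. Both strands were searched.
CDK6 promoter of NM_001259: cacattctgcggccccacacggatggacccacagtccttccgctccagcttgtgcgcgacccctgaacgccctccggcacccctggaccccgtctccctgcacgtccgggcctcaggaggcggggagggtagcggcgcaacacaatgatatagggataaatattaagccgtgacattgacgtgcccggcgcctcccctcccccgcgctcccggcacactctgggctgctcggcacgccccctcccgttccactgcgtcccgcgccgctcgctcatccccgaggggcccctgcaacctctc
CDK6 promoter of NM_001145306: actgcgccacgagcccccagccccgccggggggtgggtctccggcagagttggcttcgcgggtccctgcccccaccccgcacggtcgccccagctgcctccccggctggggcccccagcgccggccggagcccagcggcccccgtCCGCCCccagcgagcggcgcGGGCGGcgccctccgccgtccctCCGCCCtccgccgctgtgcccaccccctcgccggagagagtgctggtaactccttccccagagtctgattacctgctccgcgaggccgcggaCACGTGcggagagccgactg
CDK4 promoter: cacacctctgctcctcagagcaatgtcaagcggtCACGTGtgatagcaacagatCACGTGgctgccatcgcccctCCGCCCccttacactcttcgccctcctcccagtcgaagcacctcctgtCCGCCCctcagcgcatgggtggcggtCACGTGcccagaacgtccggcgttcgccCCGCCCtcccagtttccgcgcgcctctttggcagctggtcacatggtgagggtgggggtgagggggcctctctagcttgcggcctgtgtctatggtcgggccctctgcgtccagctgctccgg
The CDK4 window held 3 E-boxes and 3 GC boxes, the NM_001145306 window of CDK6 held 1 E-box and 3 GC boxes, and the NM_001259 window held neither. An E-box was present in 7.26% and a GC box in 45.0% of 35116 promoter windows of this length. The AP-1 word TGACTCA, present in 4.95% of the windows, was found in none of the 3. The E2F words TTTGGCGC, TTTCGCGC and TTTCCCGC, of which 2.74% of the windows held at least 1, were also found in none of the 3. Of the MYC family genes, MYCN had a log2 fold change of -0.31 (SE 0.07, adjusted p = 0.000137, edgeR) and MYC of -0.05 (SE 0.07, adjusted p = 0.668, edgeR). Whether MYC family factors act at these promoters was not tested.

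Of the 3 D cyclin genes, CCND1 fell, and CCND2 and CCND3 did not pass the test. CCND1, the D cyclin with the highest level per length here, had 190 and 187 CPM in siUPF1 replicates 1 and 2, against 223 and 213 CPM in controls a and b. Both siUPF1 libraries lay below both controls. Its log2 fold change was -0.21 (SE 0.07, adjusted p = 0.0151, edgeR), but the call missed the threshold without control a (adjusted p = 0.279, edgeR) and without control b (0.0701). CCND2 had 247 and 242 CPM in siUPF1 libraries, against 276 and 264 CPM in controls, and its log2 fold change was -0.14 (SE 0.07, adjusted p = 0.128, edgeR). CCND3 had 60.2 and 59.6 CPM in siUPF1 libraries, against 53.0 and 54.2 CPM in controls. Its groups did not overlap, but the log2 fold change of 0.16 (SE 0.08, adjusted p = 0.152, edgeR) did not pass.

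Within the family, CCND3 took a larger part of the summed D cyclin level per length after knockdown. Its share was 28.3% ± 0.145 in siUPF1 libraries and 23.8% ± 0.866 in controls (SD, n = 2 each). The share of CCND1 was 38.3% ± 0.0299 in siUPF1 libraries and 41.7% ± 0.517 in controls, and that of CCND2 was 33.4% ± 0.115 in siUPF1 libraries and 34.6% ± 0.349 in controls. The summed level of the 3 genes was 115 ± 1.44 CPM per kilobase in siUPF1 libraries and 122 ± 2.67 in controls. CCND1 and CCND2 are among the densest genes of the table, with more reads per base than 91.9% and 86.4% of genes. With that trend on reads per base removed, CCND1 stood at -0.15 and CCND2 at -0.11 on the log2 scale. ORAOV1, which neighbours CCND1 on the opposite strand and shares 497 exonic bases with it over all GENCODE transcripts but 0 bases of the transcripts in the table, had a log2 fold change of 0.85 (SE 0.09, adjusted p = 3.68e-21, edgeR).

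**Figure D2:**
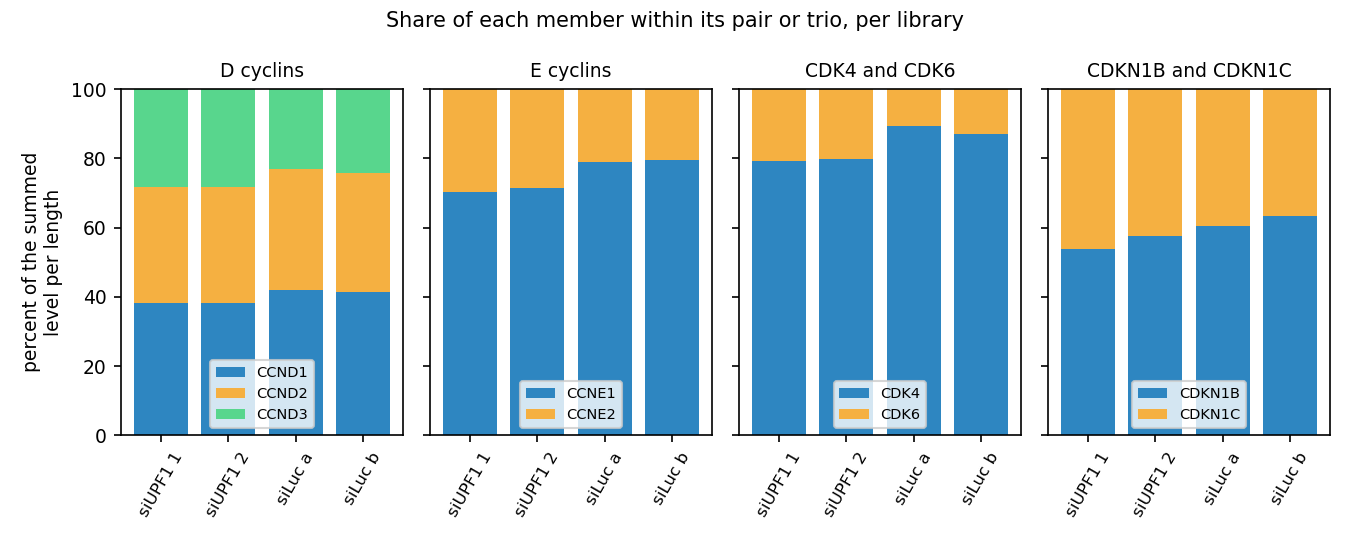
Share of each gene in the summed level per transcript length of the members shown together (CDKN1A is not included beside CDKN1B and CDKN1C), as a percent, in each siUPF1 replicate and each siLuc control. CDK6, CCND3, CCNE2 and CDKN1C took a larger share in both siUPF1 libraries than in either control.

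The E cyclin genes, whose products activate CDK2, moved apart. CCNE1 had 60.9 and 59.6 CPM in siUPF1 replicates 1 and 2, against 72.4 and 69.0 CPM in controls a and b. The fall was clear of either control, and the log2 fold change was -0.23 (SE 0.08, adjusted p = 0.0211, edgeR). CCNE2 had 32.3 and 30.01 CPM in siUPF1 libraries, against 24.4 and 22.5 CPM in controls. It rose by 0.41 on a log2 scale (SE 0.12, adjusted p = 0.00345, edgeR), and the groups did not overlap. Neither call held throughout. CCNE1 had an adjusted p of 0.293 without control a, 0.092 without control b and 0.0517 without siUPF1 replicate 2 (edgeR), and 0.183 in DESeq2. CCNE2 had 0.143 without control b (edgeR) and 0.0962 in DESeq2.

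CCNE1 supplied most of the E cyclin level per length in every library. The summed level of the pair was 43.8 ± 1.15 CPM per kilobase in siUPF1 libraries and 46.0 ± 1.77 in controls (SD, n = 2 each). The CCNE2 share of the summed level per length was 29.1% ± 0.751 in siUPF1 libraries and 20.8% ± 0.383 in controls (SD, n = 2 each). CCNE2 shares its locus with INTS8, a gene of the Integrator complex on the opposite strand. In the GENCODE transcripts matched to the table, INTS8 exons cover 1519 of 2724 exonic bases of CCNE2 (55.8%). No source used here says whether counting used strand, so reads of the shared bases may have gone to either gene. INTS8 had 91.9 and 87.0 CPM in siUPF1 libraries, against 105 and 107 CPM in controls (log2 fold change -0.24, SE 0.07, adjusted p = 0.00637, edgeR), the opposite direction to CCNE2. The INTS8 call was lost in DESeq2 (adjusted p = 0.0858) and, in edgeR, without control a or without control b. Its log2 fold change ran from -0.28 to -0.20 over 11 other fits. The part of INTS8 reads in the CCNE2 counts was not tested.

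Of the 2 CIP/KIP inhibitor genes among the members, CDKN1C rose and CDKN1B did not pass. The third gene of that family, CDKN1A, is no member, is given with the other G1 genes, and is left out of the sum and the share of this pair. CDKN1C, which encodes p57 and is known as an imprinted gene, had 33.7 and 29.9 CPM in siUPF1 replicates 1 and 2, against 22.1 and 20.9 CPM in controls a and b. The lower siUPF1 library stood well above the higher control. The log2 fold change was 0.56 (SE 0.12, adjusted p = 2.90e-05, edgeR), and CDKN1C passed in each of 11 other fits, with adjusted p up to 0.0139 without control b (edgeR). CDKN1B, which encodes p27, had 56.0 and 58.2 CPM in siUPF1 libraries, against 48.3 and 51.6 CPM in controls. Its log2 fold change of 0.19 (SE 0.09, adjusted p = 0.0783, edgeR) passed only without siUPF1 replicate 1 among the 11 other fits (adjusted p = 0.0445, edgeR). The 2 genes together reached 40.9 ± 0.895 CPM per kilobase in siUPF1 libraries and 32.1 ± 0.471 in controls (SD, n = 2 each), and the CDKN1C share of that pair's sum was 44.3% ± 2.76 in siUPF1 libraries and 38.2% ± 1.95 in controls.

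RB1, the substrate on which these kinases converge, had 84.8 and 80.0 CPM in siUPF1 replicates 1 and 2, against 90.04 and 95.8 CPM in controls a and b. Both siUPF1 libraries lay below both controls, yet the log2 fold change of -0.18 (SE 0.07, adjusted p = 0.0661, edgeR) did not pass. RB1 passed in 2 of 11 other fits, with that trend on reads per base removed (-0.24, adjusted p = 0.0151) and without siUPF1 replicate 1 (-0.22, adjusted p = 0.0246), both from edgeR.

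**Figure D3:**
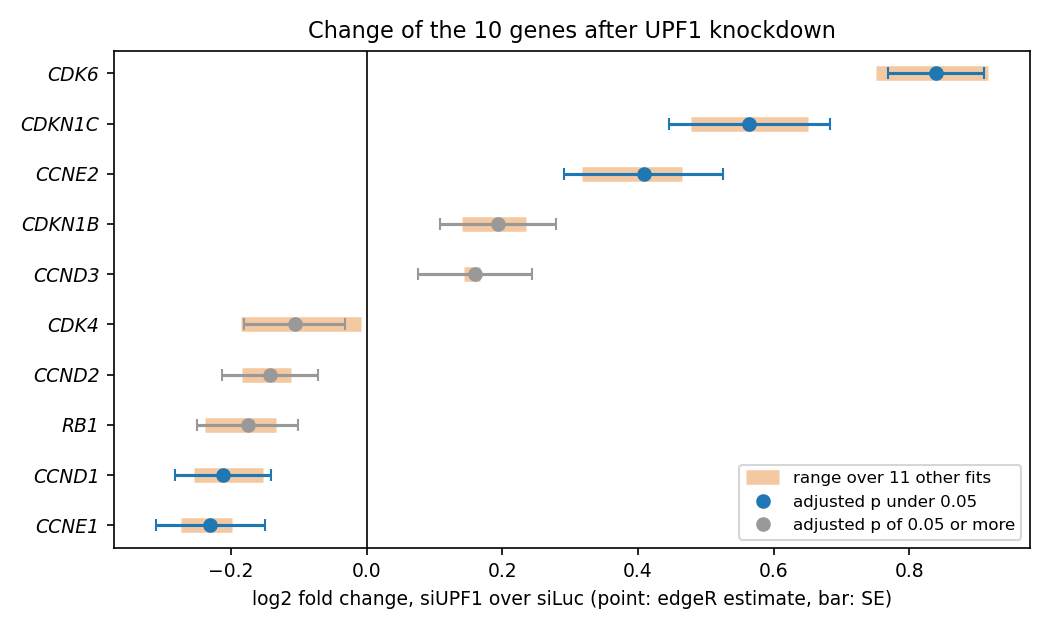
Log2 fold change of each gene, siUPF1 over siLuc, from edgeR with its SE; orange bands span 11 other fits and blue points mark an adjusted p under 0.05. CDK6 at 0.84, CDKN1C at 0.56 and CCNE2 at 0.41 stand on the right, and CCND1 at -0.21 and CCNE1 at -0.23 on the left.

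Ordered by level per transcript length, CDK4, CCND1 and CCND2 stood highest of the 10 in both groups. They averaged 57.1, 44.1 and 38.3 CPM per kilobase in siUPF1 libraries, and 61.5, 51.0 and 42.3 in controls. CCND3, at 32.5, stood above CCNE1, at 31.0, after knockdown, and below it in controls, at 29.1 against 36.4 for CCNE1. At the low end CDK6 was the least abundant in controls, at 8.21 ± 0.615, while in siUPF1 libraries it reached 14.7 ± 1.13 and CCNE2 was lowest at 12.7 ± 0.662 (SD, n = 2 each). Neighbours whose library ranges overlapped were CDKN1C and RB1 in siUPF1 libraries, and CDKN1B and RB1 in controls. Lengths were those behind the deposited RPKM values, and the levels of genes with several transcripts depend on that choice. Whether counts of dense genes, CDK4 and CCND1 among them, stay in proportion to transcripts was not tested.

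The genes whose profile over the 4 libraries was nearest to that of CDK6 were LPPR4, CAMK2D and MSX2. Likeness was the Euclidean distance of log2 CPM centred on each gene's mean, among 13631 other genes with a mean of at least 5 CPM. The distances were 0.02 for LPPR4, 0.03 for CAMK2D, a calcium and calmodulin dependent kinase gene, and 0.04 for MSX2, a homeobox gene. They are smaller than the SE of the log2 fold changes, 0.14 for LPPR4, 0.08 for CAMK2D and 0.17 for MSX2. The ranking therefore describes these 4 libraries alone. CAMK2D had 93.4 and 82.3 CPM in siUPF1 replicates 1 and 2, against 46.0 and 50.7 CPM in controls a and b.

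The 10 transcripts differ in features that the choice of genes did not use. By the longest matched GENCODE transcript, CDK6 has a 3' UTR of 10219 nt, longer than that of 99.2% of 13685 matched genes. The 3' UTRs of CCND2, at 5341 nt, and CCND1, at 3192 nt, also lie above the upper quartile of 2502 nt. The other 7 members lie below it, with CCNE1 shortest at 531 nt. A long 3' UTR and an upstream AUG are known to make some transcripts targets of UPF1. Among genes with a 3' UTR at or above the upper quartile, 20.3% rose and 9.87% fell, and among the rest 15.3% rose and 9.81% fell. The 3 long members were thus 1 riser, CDK6, 1 faller, CCND1, and CCND2, which did not pass.

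Upstream AUGs were present in 5 of 10 members, beside 54.2% of matched genes. They were found in CDK4 (4), CCND3 (5), CDK6 (2), CCNE1 (1) and CDKN1B (1), of which CDK6 rose and CCNE1 fell. Only the longest matched transcript was used, and for CCND3 it was 1 of 6 matched, so its other transcripts may differ. Among all matched genes with an upstream AUG 17.8% rose and 9.68% fell, and among those without one 15.1% rose and 9.99% fell. No member has an exon junction more than 50 nt after its stop codon, a feature of 0.438% of matched genes. GENCODE lists transcripts of the NMD class for CDK4, CCNE2 and RB1, and 41.03% of matched genes have one. Counts per gene do not separate such transcripts from the main one.

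Among 22 other genes of G1 and the restriction point, 3 rose, 2 fell and 17 did not pass, with a median log2 fold change of -0.08. Over all genes tested 16.8% rose and 9.14% fell, so these counts lie near the shares over all genes. All 3 risers encode CDK inhibitors. CDKN2D, another CDK inhibitor gene of this list, did not pass, and CDKN2C was not among the 15942 genes given. CDKN2B, which encodes the CDK4 and CDK6 inhibitor p15, had 98 and 71 counts in siUPF1 replicates 1 and 2, against 14 and 17 in controls a and b, a log2 fold change of 2.27 (SE 0.27, adjusted p = 2.48e-15, edgeR). CDKN2A, which encodes p16 and ARF, had 19 and 38 counts in siUPF1 libraries, against 9 and 11 in controls. Its log2 fold change of 1.33 (SE 0.36, adjusted p = 0.00203, edgeR) was 0.83 without siUPF1 replicate 2 (adjusted p = 0.22, edgeR), and missed the threshold without control a (0.0591, edgeR) and in DESeq2 (0.187). CDKN1A, which encodes p21, had 54.6 and 51.8 CPM in siUPF1 libraries, against 37.2 and 39.2 CPM in controls (log2 fold change 0.48, SE 0.09, adjusted p = 2.65e-06, edgeR). E2F3 (-0.22, SE 0.07, adjusted p = 0.0102) and E2F1 (-0.20, SE 0.08, adjusted p = 0.0409) fell in edgeR. Without control a 0 genes of this list fell in edgeR, with 1 lower at an unadjusted p under 0.05, and E2F1 stood at -0.09. Without control b 1 fell, and without siUPF1 replicate 2, 4 fell. With all 4 libraries DESeq2 called 0 of them down, beside 2 in edgeR. At an unadjusted p under 0.05, 1 was lower in DESeq2 and 3 in edgeR.

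Genes of the next phases tended lower by small amounts. Over all genes tested 16.8% rose and 9.14% fell, with a median of -0.01. Of 24 S phase genes known as E2F targets, 0 rose and 8 fell in edgeR, with a median of -0.14 (unadjusted p under 0.05 in edgeR, 0 higher and 11 lower; in DESeq2, 0 rose and 4 fell). UHRF1 (-0.29, SE 0.07) and GINS1 (-0.25, SE 0.07) were among those with the smallest p. Without control a 0 fell in edgeR, with 3 lower at an unadjusted p under 0.05, and 3 fell when control b was left out and 3 when siUPF1 replicate 2 was. Of 18 G2 and M phase genes, 0 rose and 4 fell in edgeR, with a median of -0.16 (unadjusted p under 0.05 in edgeR, 0 higher and 11 lower; in DESeq2, 0 rose and 2 fell). BUB1 (-0.26, SE 0.07), TOP2A (-0.26, SE 0.07) and CDK1 (-0.22, SE 0.07) had the smallest p. Without control a 1 rose and 0 fell in edgeR, with 2 higher and 2 lower at an unadjusted p under 0.05. The fallers numbered 8 without siUPF1 replicate 1 and 2 without siUPF1 replicate 2.

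Genes that feed into D cyclin transcription split. Of 18 on the list, 4 rose, 2 fell and 12 did not pass, with a median of -0.04. Beside these and the 2 lists below, 16.8% of all genes tested rose and 9.14% fell. The AP-1 genes FOSL2 (1.60, SE 0.11), FOSL1 (1.58, SE 0.12) and JUN (1.08, SE 0.08) rose, as did LEF1 (0.79, SE 0.26), a WNT pathway factor. MYCN (-0.31) and the WNT feedback gene AXIN2 (-0.35, SE 0.08) fell. The other AP-1 genes of the list, FOS and JUNB, did not pass, and neither did the WNT pathway genes CTNNB1, TCF7, TCF7L1 and TCF7L2. The risers numbered 3 in DESeq2 and without control a, control b or siUPF1 replicate 2 in edgeR, and LEF1 was the call lost in each of these. The fallers numbered 1 without control a. JUN had 99.8 and 90.6 CPM in siUPF1 replicates 1 and 2, against 48.0 and 42.3 CPM in controls a and b. A further list held 14 genes of the ubiquitin system, and whether each acts on G1 cyclins or p27 was not tested. Of these 14, 0 rose and 1, KLHL9 (-0.26, SE 0.07), fell in edgeR, with a median of -0.09. At an unadjusted p under 0.05 in edgeR 0 were higher and 2 lower, and in DESeq2 0 rose and 0 fell. CUL1 (-0.15) and SKP1 (-0.12) did not pass. KLHL9 was lost without control b (adjusted p = 0.146, edgeR), and without siUPF1 replicate 1 there were 1 riser and 3 fallers. Of 13 other cyclin and CDK genes, 0 rose and 1, CCNG2 (-0.26, SE 0.10), fell in edgeR, with a median of -0.10 (unadjusted p under 0.05 in edgeR, 0 higher and 3 lower; in DESeq2, 0 rose and 0 fell). CCNF (-0.17) and CDK18 (-0.18) did not pass. CCNG2 stood at -0.11 without control b (adjusted p = 0.637, edgeR), and its call was also lost without siUPF1 replicate 2 (0.113), where 2 others fell.

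**Figure D4:**
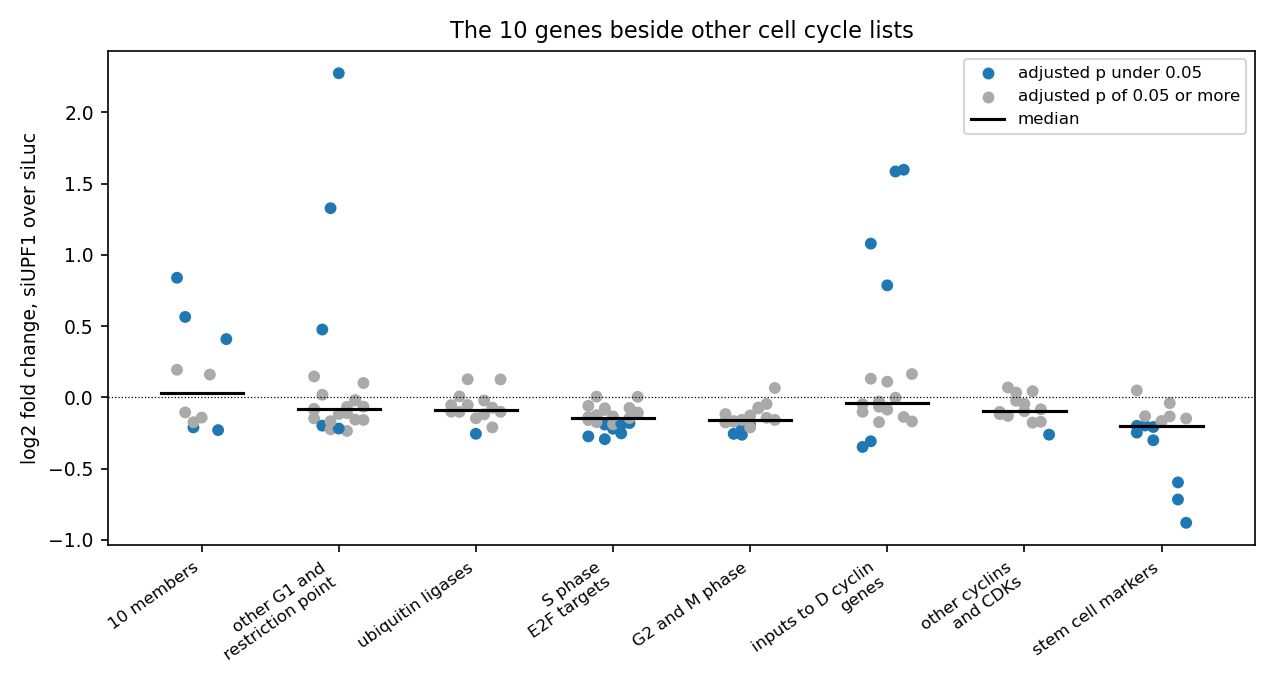
Log2 fold change, siUPF1 over siLuc, of each tested gene in the 10 members, 6 other cell cycle lists and the stem cell markers; black bars are medians and blue points have an adjusted p under 0.05. The S phase list has its median at -0.14 and the members at 0.03, with CDKN2B at 2.27 the highest point.

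Markers of cell state moved beside these genes, where 16.8% of all genes tested rose and 9.14% fell. Of 15 stem cell markers, 0 rose and 8 fell in edgeR, with a median of -0.20 (unadjusted p under 0.05 in edgeR, 0 higher and 11 lower; in DESeq2, 0 rose and 5 fell), led by GDF3 (-0.88), UTF1 (-0.72) and DPPA2 (-0.60). The fallers numbered 2 without control a and 5 without siUPF1 replicate 2, and UTF1 stood at -0.37 without control a (adjusted p = 0.261, edgeR). Lineage markers were few. The 15942 genes given held 4 of 10 listed endoderm names, 6 of 11 mesoderm names and 7 of 10 neural names. They held 5 of 11 trophoblast and amnion names and 7 of 10 fibroblast or mesenchymal names. Absent names include T, EOMES and MESP1 for mesoderm, and CDX2, GATA2, TP63 and ELF5 for trophoblast. Of 4 endoderm genes tested, 3 rose and 1 fell, with CER1 at 1.13, FOXA2 at -2.97 and AFP at 0.88, and their summed level was 44.0 to 59.1 CPM in siUPF1 libraries and 29.9 to 30.7 CPM in controls. Endoderm genes not among those given include SOX17, GATA4, GATA6, HNF4A and TTR. Of 6 mesoderm genes, 3 rose and 2 fell, with BMP4 at 0.90, MSX2 at 0.82 and PDGFRA at -0.61, and the sum was 228 to 231 CPM in siUPF1 libraries and 234 to 244 CPM in controls. The mesoderm fallers numbered 1 without control b. Of 7 neural genes, 1 rose and 3 fell, with DCX at -1.11, NCAM1 at -0.76 and MAP2 at 0.35, and among the fits that left out 1 library MAP2 passed in edgeR only without siUPF1 replicate 2. The neural sum was 540.2 to 568 CPM in siUPF1 libraries and 610.2 to 625 CPM in controls. Of 5 trophoblast and amnion genes, 3 rose, TFAP2C (0.66), GATA3 (1.19) and CGA (1.39), and the summed level of the list was 67.0 to 67.3 CPM in siUPF1 libraries and 44.6 to 44.8 CPM in controls. Of 7 fibroblast or mesenchymal genes, 2 rose, TWIST1 (1.58) and PDGFRB (0.40), while THY1 did not pass, at -0.10 and at 0.043 once the trend on reads per base was removed. Their sum was 560.1 to 582 CPM in siUPF1 libraries and 546 to 562 CPM in controls, which overlapped. PDGFRB, at 0.24 without control a, was lost there. CGA, at 1.10 and 1.42 CPM in siUPF1 libraries against 0.339 and 0.598 CPM in controls, passed in edgeR without siUPF1 replicate 1 and in none of the other fits that left out 1 library. The part of any such cells in the changes of CDK6, CDKN1C and CCNE2 was not tested.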

How the data were processed

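RNA of 4 H9 libraries was described by one table. It holds raw read counts per gene, which the authors deposited as whole numbers, and RPKM values (scaled for length and depth), both per the file headers. STAR, DESeq2 and hg19 appear in the submitters' processing notes, and no source used here says whether counting used strand. Both control columns share one heading, so controls carry no replicate number, and 2 columns of control RPKM were not used. The deposited RPKM values of the siUPF1 libraries gave the transcript length behind each gene.

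Counts were tested with the quasi-likelihood test of edgeR 4.0.16 under R 4.3.3, with TMM scaling and filterByExpr, which left out 385 of 15942 genes, and Benjamini-Hochberg adjustment over 15557 genes. The fit held both groups and no covariate. The biological coefficient of variation was 4.47%. Replicates were not copies, since chi-square over degrees of freedom was 2.88 between siUPF1 libraries and 1.71 between controls. siUPF1 libraries were together 12.9% deeper than controls. On simulated data for this comparison, over 15497 genes with 200 changed, 95% of 2-fold and 73% of 1.41-fold changes were recovered, with 12 false calls. Other fits used RLE scaling, library size alone, DESeq2 1.42.0, limma-voom (limma 3.58.1), no low-count filter, at least 5 CPM in 2 libraries, a loess trend on reads per base removed (span 0.3), each library left out in turn, where the lone library of its group is assumed to vary like the other group, and an adjusted p threshold of 0.1.

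The members and all lists were chosen with earlier results of these data known. Genes named were UPF1, the members, the 3 genes of each list with the smallest p (1 of them is not reported here), called genes of the other G1 list, and the 3 genes nearest in profile to the member with the largest change. MYC, MYCN, LEF1 and AXIN2 were named beside the promoters and their list after their values were seen, and INTS8, TSPAN31 and ORAOV1 because they overlap or neighbour a member. FOS, JUNB, CTNNB1, TCF7, TCF7L1 and TCF7L2 were named as genes of the same list that did not pass. UTRs and overlaps came from GENCODE 29 for 13685 genes matched through RefSeq transcripts, 88.0% of those tested. Promoters came from RefSeq (GRCh38.p14).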

Additional observations from a re-analysis of the deposited data

How the results depend on the processing

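No paired analysis was possible because both control columns carry the same heading, so controls have no replicate number. CDK6 and CDKN1C kept their direction and their call in all 11 other fits. No member changed direction in any fit. The results of the members were counted over these fits and at an adjusted p threshold of 0.1. Of them 107 kept direction and side of the threshold, and 8 missed it. The other 5 passed only under another setting, among them CDKN1B and RB1 at the looser threshold of 0.1. The 107 include the results of CDK4, CCND2 and CCND3, which passed in no fit. They also include the threshold of 0.1, which changes no estimate. DESeq2 called 1280 genes up and 467 down, 1 member down (CCND1), and 8 genes of the pathway lists down, against 2613, 1422, 2 and 18 in edgeR. Of the 4035 genes called in edgeR, 1747 were also called by DESeq2. Leaving out 1 library gave 1444 to 2764 genes up and 552 to 1522 down, 0 to 3 members down and 3 to 28 pathway genes down; the fewest calls came without a control. At an adjusted p threshold of 0.1, 30 pathway genes were down. THY1 reversed to 0.043 in the fit without the reads-per-base trend, and the cause was not tested. With 2 libraries a group, changes near 0.2 on the log2 scale, such as those of CCND1 and CCNE1, lie near the limit of what was called. Counts per gene do not separate transcripts.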
